A study of Oryza sativa with 21 samples.

Results

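In grains of the rice line OE2, 5 genes gave 157 to 2018 reads in every library, while in grains of the wild type ZH11 and of the line OE1 the same genes gave 0 to 5 reads in every library. They are LOC_Os03g61470, LOC_Os06g04930, LOC_Os10g19910, LOC_Os11g10590 and LOC_Os12g14440, and they were found among 39217 genes by a count rule. They were selected on their read counts: at most 5 reads in each of the 3 ZH11 and 3 OE1 libraries, and at least 100 reads in each of the 3 OE2 libraries. The counts of all 3 groups therefore chose these genes, so their levels and fold changes are given as a description, with no test. What the rule did not use is where the genes lie and what the genes beside them do, and tests are given for those neighbours. For marker genes of grain parts and of other tissues, summed levels and counts of calls are given.

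Young grains of paddy-grown rice (Oryza sativa), 3 days past pollination, were measured whole by RNA-seq, with 3 libraries per group. ZH11 is the wild type, and OE1 and OE2 both carry the genotype label DRW1-OE, that is, overexpression of DRW1. OE1 and OE2 are told apart only by the sample titles and are read here as 2 overexpression lines. The labels used here do not give the promoter that drives DRW1, the place of any insertion, the parent of each line, or whether a library is 1 plant or a pool, and a p-value here therefore speaks only of the spread among libraries, which may be technical. DRW1 could not be matched to an identifier of the count table, so its level is not given. The same series mapped RNA m5C in ZH11 and OE1 seedlings 3 weeks after germination. OE2 was not among the seedling samples, and the peak lists were not used here because the positions of these genes in the build of the lists could not be had.

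As background, a rice grain a few days after pollination holds a young endosperm that passes from free nuclei to walled cells, a small embryo, and the maternal nucellus and pericarp around them. Reads of a whole grain come from all of these, and a gene can be close to 0 reads because no tissue transcribes it or because the tissue that does is scarce. In such bulk samples, fewer cells of a type and less RNA per cell cannot be told apart. A rice locus identifier states the chromosome in its first number and runs along that chromosome in its last number, so neighbours can be read from the identifiers. The count table does not pair identifiers with names, and 0 of its identifiers matched the reference gene table, so the function of the 5 genes is not given here and no sequence is printed.

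LOC_Os12g14440, on chromosome 12, gave 1881, 2018 and 1978 reads in the OE2 libraries, 2, 0 and 4 in ZH11, and 0, 2 and 0 in OE1. No other gene of the set passed 283 reads in any library, but counts are not corrected for gene length and so do not rank transcript levels between genes. In CPM, the read count divided by the scaled library size, its level was 61.8 ± 3.12 (SD, n = 3) in OE2. Summed over libraries, this was 1440 times the ZH11 level (95% exact counting interval 659 to 3910) and 2980 times the OE1 level (825 to 24600). With libraries scaled by their totals alone, the folds were 972 and 2870. The intervals cover counting error only and take each read as independent. They would be wider if both reads of a pair were counted.

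LOC_Os11g10590, on chromosome 11, gave 268, 234 and 214 reads in OE2, 0 in all 3 ZH11 libraries, and 0, 4 and 0 in OE1. Its level was 7.52 ± 0.707 CPM in OE2. Against a floor of 3 reads per library it was at least 116-fold higher in OE2 than in ZH11, and 182 times the OE1 level (interval 70.6 to 668).

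LOC_Os03g61470, on chromosome 3, gave 283, 219 and 209 reads in OE2, 0 in all 3 ZH11 libraries, and 3, 1 and 5 in OE1. It was the only gene of the set with reads in every OE1 library, and the only one that reached the ceiling of 5. Its OE2 level of 7.46 ± 1.13 CPM was at least 115-fold higher than in ZH11 and 80.1 times the OE1 level (interval 42.0 to 176). The OE1 libraries together held 9 reads of this gene.

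LOC_Os06g04930, on chromosome 6, gave 192, 213 and 210 reads in OE2, 2, 0 and 2 in ZH11, and 0 in all 3 OE1 libraries. At 6.47 ± 0.459 CPM in OE2 it was at least 69.2-fold higher than in OE1 and 225 times the ZH11 level (interval 87.6 to 830). LOC_Os10g19910, on chromosome 10, had the fewest OE2 reads of the set, 157, 166 and 175, beside 2, 2 and 0 in ZH11 and 0, 2 and 0 in OE1. Its OE2 level was 5.24 ± 0.403 CPM, 182 times that of ZH11 (interval 70.8 to 672) and 253 times that of OE1 (interval 69.5 to 2090).

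**Figure D1:**
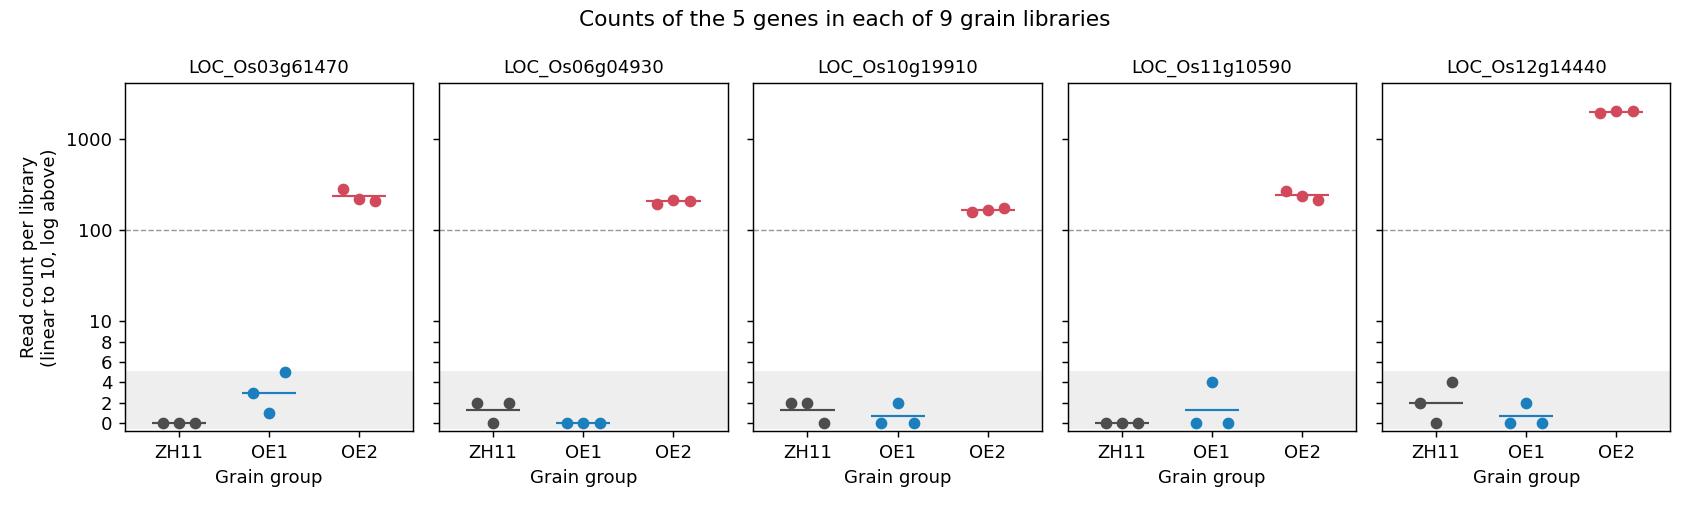
Read counts of the 5 genes in each of the 9 grain libraries, linear up to 10 and logarithmic above. Points are libraries, bars are group means, the grey band is the range allowed in ZH11 and OE1 (up to 5 reads) and the dashed line is the floor of 100 reads in OE2; the lowest OE2 point is 157 reads and the highest point outside OE2 is 5.

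The coefficient of variation of the CPM over the OE2 libraries was 5.04% for LOC_Os12g14440, 7.09% for LOC_Os06g04930, 7.68% for LOC_Os10g19910 and 9.40% for LOC_Os11g10590. It was widest, at 15.1%, for LOC_Os03g61470, whose first OE2 library stood at 8.77 CPM and the others at 6.86 and 6.77. Counting alone would give 2.26% for LOC_Os12g14440, 6.98% for LOC_Os06g04930, 7.76% for LOC_Os10g19910, 6.47% for LOC_Os11g10590 and 6.50% for LOC_Os03g61470. The spread thus exceeded counting error by a similar ratio in LOC_Os12g14440 and LOC_Os03g61470, and was close to it in LOC_Os06g04930 and LOC_Os10g19910. No OE2 library was highest for all 5 genes: the first was highest for LOC_Os03g61470 and LOC_Os11g10590 and lowest for the other 3.

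Outside OE2, 18 of the 30 values of these genes were 0 and 12 were above 0. Of those 12, 9 were even numbers and 7 were exactly 2. Over the whole table, 64.9% to 68.1% of the counts from 1 to 20 in a library were even, and even counts were thus common in all genes. How reads of a pair were counted is not stated in the labels. With 0 to 9 summed reads per group, no difference between ZH11 and OE1 was read from these genes. The exception in parity was LOC_Os03g61470, whose 3 counts in OE1 were all odd.

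The rule was met by more genes for OE2 than for either other group. With the same ceiling and floor, 0 genes were on in OE1 only and 0 were on in ZH11 only. In the opposite direction 1 gene was off in OE2 only: LOC_Os04g03980, named after its values were seen. In the rule's other combinations, 36 genes were off in ZH11 alone and on in both lines, and 0 were off in OE1 alone. These counts depend on the ceiling. At 10 reads in place of 5, 16 genes were on in OE2 only and 9 in ZH11 only, with 0 still on in OE1 only. At 20 reads the numbers were 48, 32 and 2.

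**Figure D2:**
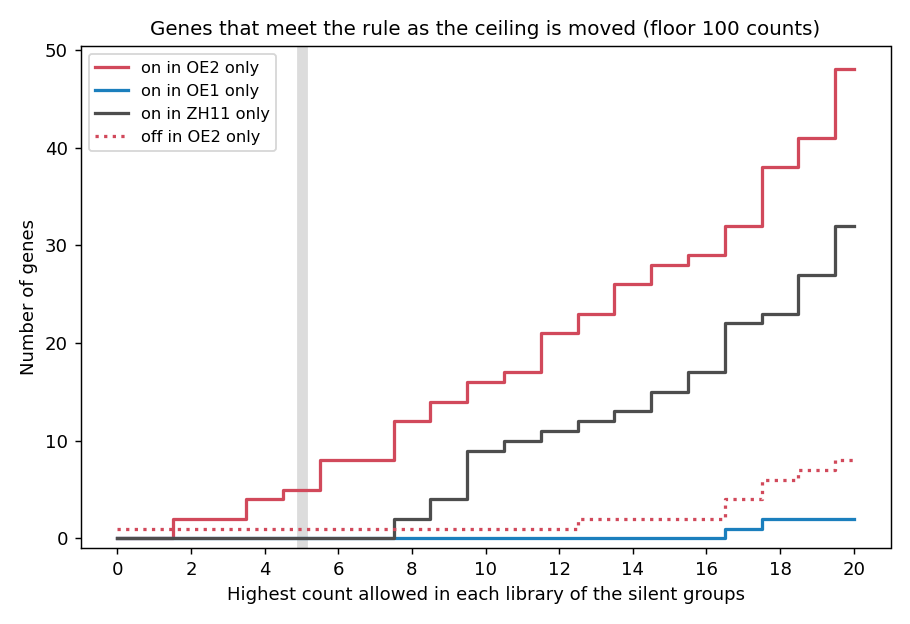
Number of genes (vertical axis) that were on in 1 group only, or off in OE2 only, as the highest count allowed in each library of the silent groups (horizontal axis, reads) is moved from 0 to 20, with the floor kept at 100 reads. The grey line marks the ceiling of 5, where 5 genes were on in OE2 only, 0 in OE1 only, 0 in ZH11 only and 1 off in OE2 only; the curve for OE2 rises to 48 genes at a ceiling of 20.

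Genes just outside the rule had values close to those inside. LOC_Os03g43100 missed it by a single read, with 2, 2 and 6 reads in ZH11, 0, 1 and 0 in OE1, and 322, 339 and 320 in OE2. LOC_Os04g52790 had 0 reads in all ZH11 libraries, 6, 0 and 0 in OE1, and 226, 314 and 220 in OE2, and LOC_Os05g02540 reached 6 in both silent groups with 168, 115 and 136 in OE2. On the side of the floor, LOC_Os02g12270 had 0 reads in all 6 libraries of ZH11 and OE1 and 91, 131 and 108 in OE2. LOC_Os06g06230 had 91, 135 and 104 in OE2 with 0 in ZH11, and LOC_Os09g20180 had 139, 99 and 76 with 0 in ZH11. A ceiling of 10 together with a floor of 50 held 48 genes on 12 chromosomes, so the boundary of the set is a choice and not a gap in the values.

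The genes can also be placed among all those silent in ZH11 and on in OE2, whatever OE1 did. There were 97 such genes with at most 5 reads in every ZH11 library and at least 100 in every OE2 library. In 36 of them every OE1 library also had at least 100 reads, and 56 lay in between. Taken as OE1 level in percent of OE2 level, the 5 genes ran from 0 for LOC_Os06g04930, through 0.0324% for LOC_Os12g14440, 0.382% for LOC_Os10g19910 and 0.533% for LOC_Os11g10590, to 1.28% for LOC_Os03g61470. The other 92 genes ran from 0.677% to 281%, with a median of 19.1%. Their ranges overlapped: LOC_Os11g42290, at 0.677%, and LOC_Os04g52790, at 0.753%, lay below LOC_Os03g61470 and were left out by the ceiling of 5 reads in OE1. OE1 was above OE2 in 8 of the 97.

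**Figure D3:**
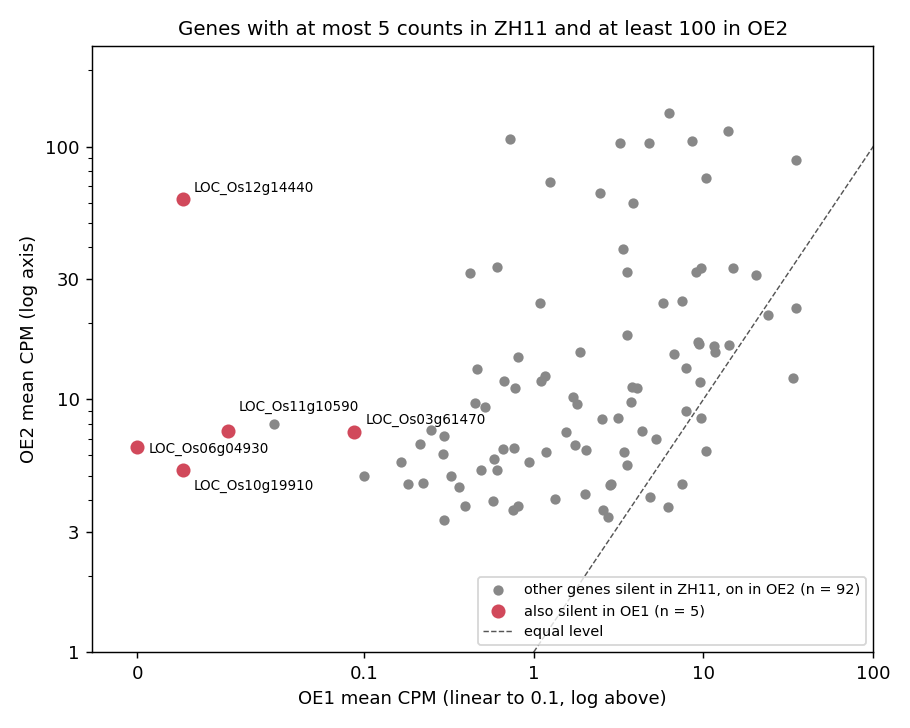
Mean CPM in OE1 (horizontal axis, linear to 0.1 and logarithmic above) against mean CPM in OE2 (vertical axis, logarithmic) for the 97 genes that were silent in ZH11 and on in OE2. The 5 red genes lie at the left edge, below 0.1 CPM in OE1, and the 92 grey genes spread from there to beyond the dashed line of equal levels.

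The 5 genes lie on 5 different chromosomes, 3, 6, 10, 11 and 12, so 0 of them had another of the set within 20 listed genes. Among the 36 genes off in ZH11 alone, 35 have an identifier that places them, and 6 of those had another of their set within 20 listed genes. A set of 5 holds far fewer possible pairs, so these counts are not read against each other. In the set of 16 at a ceiling of 10 reads, 2 genes stood next to each other, LOC_Os05g02540 and LOC_Os05g02550.

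Neighbours were tested with edgeR's quasi-likelihood test over all 24765 genes with enough reads, with Benjamini-Hochberg adjustment at 0.05. The lines differ from ZH11 in most genes, which sets the background: in OE2 against ZH11, 38.4% of tested genes were called higher and 36.0% lower. In OE2 against OE1, 32.4% were called higher in OE2 and 32.8% lower, and in OE1 against ZH11, 33.9% higher in OE1 and 33.8% lower. All 5 genes passed the expression filter, which their OE2 counts alone ensured. Of the 10 nearest neighbours, 1 on each side of each gene, 6 had too few reads to test, none of them with more than 8 reads in any library. That is 60.0%, beside 36.9% of all genes in the table. Of the 4 that could be tested, 2 were higher and 2 lower in OE2 than in ZH11. One of the higher ones, LOC_Os03g61480, passed the expression filter only through its OE2 reads and could hardly enter except as a higher gene.

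The higher neighbours lay beside LOC_Os11g10590 and LOC_Os03g61470. LOC_Os11g10600, the next listed gene after LOC_Os11g10590, gave 20, 2 and 22 reads in ZH11, 10, 21 and 14 in OE1, and 368, 319 and 268 in OE2. All OE2 libraries lay above all others, and the log2 change was 4.98 against ZH11 (SE 0.33, adjusted p = 6.04e-15) and 4.42 against OE1 (SE 0.33, adjusted p = 2.02e-13). OE1 and ZH11 were not called different (log2 change 0.57, SE 0.44, adjusted p = 0.252). The neighbour on the other side, LOC_Os11g10570, had 0 reads in 8 libraries and 2 in the other one.

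Further along chromosome 11, LOC_Os11g10710, 7 listed genes after LOC_Os11g10590 and picked after its values were seen, gave 626, 449 and 555 reads in ZH11, 437, 456 and 347 in OE1, and 6694, 6499 and 6022 in OE2. It rose in OE2 by 4.11 against ZH11 (SE 0.07, adjusted p = 4.29e-33) and by 3.98 against OE1 (SE 0.07, adjusted p = 3e-31). The change in OE1 was not called (log2 change 0.14, adjusted p = 0.115), and it was −0.37 when libraries were scaled by their totals. LOC_Os11g10640, between the pair, had a different order: 2.71 ± 0.510 CPM in OE1 lay below 7.22 ± 1.63 in ZH11 and 7.34 ± 0.246 for OE2. Its OE2 and ZH11 levels were not called different (log2 change 0.03, adjusted p = 0.9).

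Beside LOC_Os03g61470, several genes in a row were higher in OE2. LOC_Os03g61480, the next listed gene, had 0 reads in all ZH11 and OE1 libraries and 14, 16 and 10 in OE2, at least 6.48-fold higher than ZH11 and at least 4.48-fold higher than OE1, given with no test because of the filter. LOC_Os03g61490, the second, gave 26, 23 and 35 reads in ZH11, 2831, 3095 and 2307 in OE1, and 11853, 11573 and 10998 in OE2. The 3 groups did not overlap, and the gene rose in each line, by a log2 change of 7.13 in OE1 (SE 0.10, adjusted p = 1.61e-35) and 9.22 in OE2 (SE 0.09, adjusted p = 2.04e-39). LOC_Os03g61500, the third, had 0 reads in ZH11, 252, 202 and 153 in OE1 and 4470, 4289 and 4192 in OE2, at least 96.6-fold higher in OE1 and at least 2100-fold higher in OE2 than in ZH11.

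LOC_Os03g61510, the fourth, gave 0, 0 and 2 reads in ZH11, 0, 4 and 2 in OE1, and 47, 41 and 36 in OE2. It passed the filter only through OE2, so its values are given with no test. OE1 stood at 23.5% of OE2 for LOC_Os03g61490, 4.59% for LOC_Os03g61500, 4.79% for LOC_Os03g61510 and 1.28% for LOC_Os03g61470, and had no reads of LOC_Os03g61480. OE2 was above OE1 by a log2 difference of 2.09 for LOC_Os03g61490 (SE 0.05, adjusted p = 4.54e-27) and 4.44 for LOC_Os03g61500 (SE 0.09, adjusted p = 1.36e-28). The fifth, LOC_Os03g61530, gave 5, 6 and 8 reads in ZH11, 27, 10 and 21 in OE1, and 28, 42 and 41 in OE2. It too passed the filter only through OE2, so its values are given with no test. OE1 stood at 51.7% of OE2 for this gene. On the other side, the 3 nearest genes had 0 reads in all 9 libraries, and LOC_Os03g61360, the fifth, rose in OE2 from 0.163 ± 0.114 CPM in ZH11 and 0.611 ± 0.301 in OE1 to 17.1 ± 0.542 (log2 change against ZH11 6.67, SE 0.28, adjusted p = 4.94e-21). Without ZH11 replicate 3, which held 14 of its 23 ZH11 reads, that change was 7.40. LOC_Os03g61360, LOC_Os03g61510 and LOC_Os03g61530 were picked after values were seen.

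Stretches of this kind were found elsewhere too. Of 38916 listed genes in locus order, 1519 (3.9%) had an OE2 level at least 10-fold above ZH11, with ZH11 raised to its floor of 3 reads per library. They formed 32 runs of at least 3 consecutive genes, 9 of at least 4 and 2 of 5, the longest. LOC_Os03g61490 to LOC_Os03g61510 was one of the runs of 3, and 0 runs held any of the 5 genes. LOC_Os03g61470 itself passed this mark, but LOC_Os03g61480 between it and the run did not. These marks were chosen after values were seen.

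Beside the other genes of the set, no nearest neighbour was called higher in OE2 than in ZH11. Next to LOC_Os06g04930, LOC_Os06g04920 fell in OE2 from 142, 164 and 180 reads in ZH11 to 57, 51 and 44, with 96, 56 and 65 in OE1 (log2 change −1.13 against ZH11, SE 0.26, adjusted p = 0.000225). On its other side LOC_Os06g04940 had 0 to 8 reads in every library. LOC_Os06g04910, 2 places before it, was higher in OE2 than in ZH11 by 1.51 (SE 0.07, adjusted p = 1.37e-20). Next to LOC_Os10g19910, LOC_Os10g19904 gave 1009, 1115 and 1158 reads in ZH11, 840, 846 and 629 in OE1 and 392, 350 and 395 in OE2, a fall against ZH11 (log2 change −0.98, SE 0.10, adjusted p = 1.24e-10) and against OE1 (log2 difference −1.0, SE 0.10, adjusted p = 1.72e-10). LOC_Os12g14440, with 1881 to 2018 reads in OE2, had LOC_Os12g14340 with 0 to 5 reads on one side and LOC_Os12g14450 with 0 to 2 on the other. Its nearest neighbour that could be tested, LOC_Os12g14330, 2 places away, was higher in OE2 than in ZH11 by 1.54 (SE 0.33, adjusted p = 9.27e-05).

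**Figure D4:**
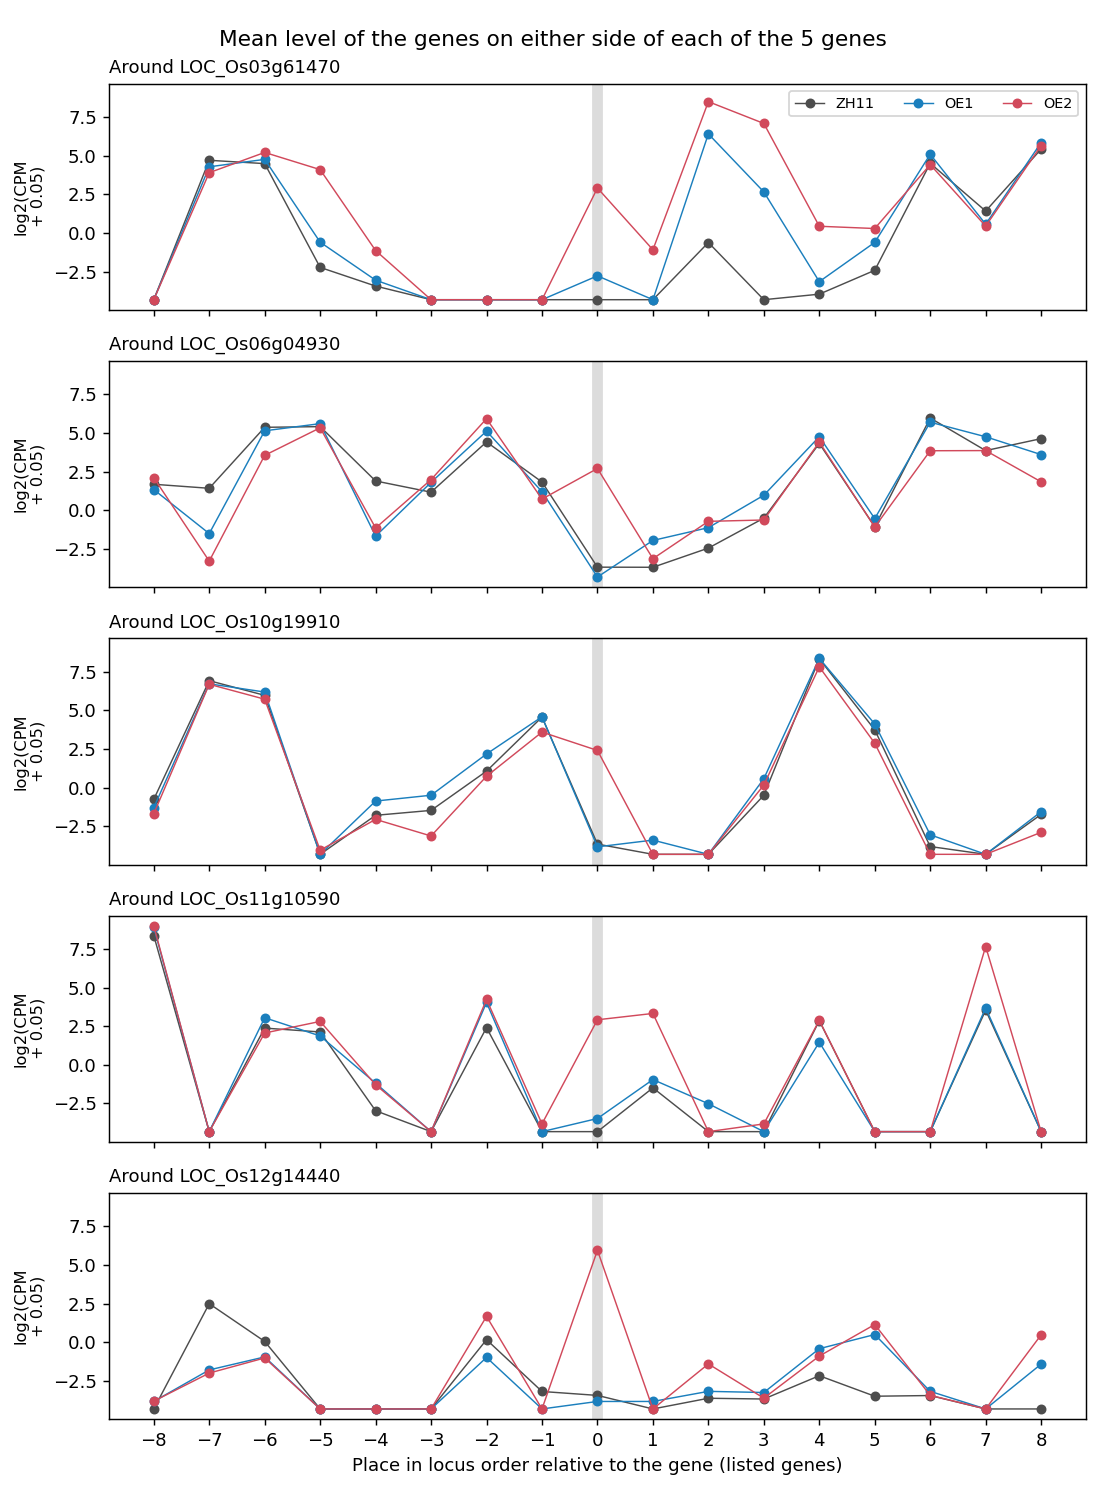
Mean level, as log2(CPM + 0.05), of the 8 listed genes on either side of each of the 5 genes (grey line at 0) in ZH11, OE1 and OE2, by place in locus order. On chromosome 3 OE2 lies above OE1 and OE1 at or above ZH11 at places 2 to 5 and at −5. On chromosome 11 OE2 stands apart at places 0, 1 and 7. On chromosome 12 both lines lie above ZH11 at place 5. On chromosomes 6, 10 and 12 no nearest neighbour was called higher in OE2 than in ZH11, and most of these had too few reads to test.

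Over wider windows, the share of tested neighbours that were higher in OE2 than in ZH11 was 60.0% with 3 listed genes on each side and 42.0% with 8, beside 2 of 4 at the nearest place. With 3 listed genes on each side, 15 of 30 could be tested and 9 were higher and 3 lower in OE2 than in ZH11 (median log2 change 1.51, against 0.01 over all tested genes). With 8 on each side, 50 of 80 could be tested and 21 were higher and 16 lower (32.0%, median 0.01), beside the 38.4% and 36.0% of all tested genes. Of the neighbours tested, 1 of the 15 and 5 of the 50 passed the filter only through OE2, and all of these were among the higher ones. Large changes within 8 genes went both ways. The largest falls in OE2 against ZH11 were log2 changes of −5.55 for LOC_Os06g04850, −4.78 for LOC_Os12g14220, −3.19 for LOC_Os06g04889 and −2.81 for LOC_Os06g05010. All were also called lower in OE1 than in ZH11. LOC_Os12g14540 rose in both lines, by 5.11 in OE1 and 5.77 in OE2. These genes were named after their values were seen. Against OE1, 15 of the 50 tested with 8 on each side were higher in OE2 and 18 lower, beside 32.4% and 32.8% of all tested genes. In OE1 against ZH11, 24 of the 50 were higher (48.0%) and 12 lower (24.0%), beside 33.9% and 33.8%. The 24 include LOC_Os03g61530, LOC_Os11g10539 and LOC_Os12g14580, which passed the filter only through OE2.

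Each of the 9 grain libraries held 33237306 to 38117144 counts. TMM scaling gave ZH11 a factor of 1.28 to 1.29, and the lines had 0.863 to 0.907. Scaling by library totals alone would put the median gene at a log2 change of −0.55 in OE2 against ZH11 and leave 29.8% of called genes higher, against 51.6% here (25.9% against 50.1% in OE1). None of the 38 marker genes in 6 lists was among the 5 genes. Beside their calls in OE2 against ZH11 stand 38.4% of all tested genes higher and 36.0% lower. For 10 endosperm genes the summed level ranged over 9.73 to 10.8 CPM among ZH11 libraries, 40.2 to 45.3 among OE1 and 46.6 to 53.1 among OE2 libraries, of which 8 of 9 tested were higher in OE2 than in ZH11. Similar sums hid differences between the lines. In OE2 against OE1, 5 of 9 were called higher and 1 lower, beside 32.4% and 32.8% of all tested genes. LOC_Os06g04200 (Wx) averaged 1.44, 24.5 and 3.65 CPM in ZH11, OE1 and OE2, and LOC_Os02g15350 averaged 2.71, 8.62 and 29.1. In the order ZH11, OE1 and OE2, 5 embryo genes summed to 19.0 to 22.4, 21.8 to 25.5 and 42.6 to 47.0 CPM. Of the 5, 2 were called higher in OE2 than in ZH11 and 0 lower. Most of the rise of the sum in OE2 lay in LOC_Os05g46480 (LEA3), which averaged 8.94, 12.5 and 29.0 CPM. Anther and pollen genes, 8 in all, summed to 5.70 to 7.73, 8.26 to 9.89 and 4.95 to 6.32 CPM, with 1 of 3 tested higher and 2 lower, and 2 at 0 in ZH11. Green tissue genes stood at 445 to 455, 296 to 312 and 231 to 238 CPM, with 1 of 5 higher and 4 lower, carpel and ovule genes at 901 to 919, 667 to 683 and 761 to 794 CPM, with 1 of 5 higher and 3 lower, and defence genes at 440 to 464, 481 to 526 and 415 to 425 CPM, with 1 of 4 tested higher and 2 lower. The defence sum also hid differences: in OE1 against ZH11, 1 of 4 tested was higher and 3 lower. LOC_Os05g25770 averaged 117, 337 and 126 CPM in ZH11, OE1 and OE2, and LOC_Os12g36880 (PBZ1) 299, 163 and 280. The part of these differences in the 5 genes was not tested.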

How the data were processed

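Counts of reads per gene in the 9 grain libraries were used as the authors deposited them. Per the submitters' processing notes, the tools included featureCounts, HISAT2, BWA and DESeq, without versions or roles. No source used here states a strand setting, build or annotation for the counts, so reads of overlapping, antisense or near-identical genes could not be told apart. The members and the lists were chosen with earlier results of these data known. Samples were grouped by their titles.

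In R 4.3.3, edgeR 4.0.16 with limma 3.58.1 was fitted to all 9 libraries with group as the only factor, TMM scaling, the default expression filter, robust dispersions and two-sided quasi-likelihood tests. This left 24765 genes tested and 14452 untested. The fit was run on simulated counts in which far fewer genes changed than are called here. That run cannot show whether TMM scaling holds when most genes differ. Each SE is the log2 change divided by the root of F. CPM values use TMM-scaled library sizes. A fold against a group with 0 reads uses a floor of 3 reads per library, and other folds of the 5 genes are ratios of summed counts with exact binomial intervals at 95%. Intervals and floors cover counting error only, and the intervals take each read as independent. Neighbours are genes next in locus number among 38916 identifiers that state a chromosome; 301 others were left out of that order. All 5 members were named, with the 3 genes just outside each threshold and the neighbours. Marker identifiers were paired with symbols from general knowledge. Alternatives were DESeq2 1.42.0, other scalings, no filter, the replicate number as a block, leaving out each library, other thresholds and other windows.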

Additional observations from a re-analysis of the deposited data

Results flagged for a closer look

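The differences below were marked because the change against ZH11 differed between the lines, as the test of OE2 against OE1 itself showed (edgeR's quasi-likelihood test, adjusted p below 0.05). Both changes are measured against the same ZH11 libraries. Among neighbours of LOC_Os03g61470, the log2 difference of OE2 minus OE1 was 4.78 for LOC_Os03g61360, 6.96 for LOC_Os03g61480, 2.09 for LOC_Os03g61490, 4.44 for LOC_Os03g61500 and 4.31 for LOC_Os03g61510. The value for LOC_Os03g61480 is fitted against 0 reads in OE1 and depends on the prior count of the fit. LOC_Os03g61480 and LOC_Os03g61510 passed the expression filter only through OE2, so their calls are no independent result, and the value for LOC_Os03g61510 was 5.21 without OE1 replicate 2. Near LOC_Os11g10590 it was 4.42 for LOC_Os11g10600 and 3.98 for LOC_Os11g10710, and near LOC_Os12g14440 it was 2.77 for LOC_Os12g14330. Near LOC_Os06g04930 it was 0.80 for LOC_Os06g04910 and −1.68 for LOC_Os06g04960, the latter −2.61 without OE2 replicate 3. Near LOC_Os10g19910 it was −3.32 for LOC_Os10g19898, −1.47 for LOC_Os10g19902 and −1.0 for LOC_Os10g19904, the first of these −4.27 without OE2 replicate 3. Between the lines 32.4% of all tested genes were higher in OE2 and 32.8% lower, so a difference of this kind is common in the table.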

How the results depend on the processing

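The number of genes that met the rule was 2 with a ceiling of 2 counts, 16 with 10 counts, 14 with a floor of 50 counts and 3 with a floor of 200, against 5. With counts scaled by TMM library size or by DESeq2 size factors it was 7, of which 4 were among the 5 genes, LOC_Os03g61470 having passed the ceiling in OE1. Without each library in turn it was 5 to 7 and held all 5. This had to be so, because leaving out a library removes a condition of the rule. The numbers of neighbours higher and lower in OE2 than in ZH11, 2 and 2 at the nearest place, were 9 and 3 with 3 listed genes on each side and 21 and 16 with 8, the latter chosen after seeing the data, because more genes were then counted. At the nearest place they stayed at 2 and 2 under the other fits, including those without each library in turn. Within 3 listed genes some calls did not hold. LOC_Os06g04900 and LOC_Os06g04950, among the 9 higher, were no longer called with library totals. LOC_Os06g04950 was also not called without OE2 replicate 2, ZH11 replicate 2 or ZH11 replicate 3. LOC_Os10g19898, among the 3 lower, was not called without OE2 replicate 1, OE2 replicate 2 or ZH11 replicate 2. The replicate numbers do not pair the libraries: deviations of same-numbered libraries correlated at −0.0161 to 0.035. With the replicate number as a block (replicate block), the genes called in OE2 against ZH11 were 18255 in place of 18418, in OE2 against OE1 15967 in place of 16148, and in OE1 against ZH11 16598 in place of 16774. Without each library in turn they were 17710 to 18737, 15353 to 16065 and 15852 to 17014. Changes that turned sign had small values. LOC_Os06g04960 in OE2 against ZH11 was −0.14 and became 0.08 without OE2 replicate 1, 0.26 without OE2 replicate 2 and −1.06 without OE2 replicate 3. LOC_Os10g19904 in OE1 against ZH11 was 0.02 and became −0.49 with library totals and −0.02 to −0.07 without OE1 replicate 1, OE1 replicate 2 (−0.03) or ZH11 replicate 1, within a leave-one-out range up to 0.10. LOC_Os11g10710 in OE1 against ZH11 was 0.14, became −0.37 with library totals, and passed without OE1 replicate 3 or ZH11 replicate 1. The cause was not tested. Among the other single-gene values, 819 kept direction and side of the threshold, 18 were no longer called, 6 became called and 18 moved, all of the latter being changes of the 5 genes against the 0 to 6 summed ZH11 reads; for LOC_Os12g14440 the fitted log2 change was 9.87 without ZH11 replicate 2 and 11.25 without ZH11 replicate 3. With library totals alone, the folds of summed counts over ZH11 were 972 for LOC_Os12g14440, 153 for LOC_Os06g04930 and 124 for LOC_Os10g19910. They stood at 1440, 225 and 182 with TMM scaling. At 0 to 9 summed reads in ZH11 or OE1, depth limits how low the silent levels of the 5 genes can be placed.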
